A study of Homo sapiens with 2 samples.

Results

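The genes described here are 39 genes of double-strand break repair, examined as places in the genome that may lie near a site at which such a break can be made. They were chosen by name: every 50 kb window whose deposited gene name was on the list was taken. Of the 39 names 37 occur in the deposited table, on 84 of its 61607 windows. They comprise 21 genes of homologous recombination, 10 of end joining and 6 of break signalling. The values come from 4C-seq. Chromatin is fixed, digested and religated in this assay, and PCR primers that face outward from 1 fragment, the vantage point, amplify whatever DNA was joined to it. Here that fragment was next to the recognition site of the I-SceI nuclease in DRGFP, a reporter of repair by homologous recombination. The cells were U2OS, a human osteosarcoma line, that carried the transgenes DRGFP, TRE-I-SceI and Tet-On. Both libraries come from these cells in independent experiments and form 1 group of 2; no control cells, no treatment and no cutting by I-SceI are recorded, and the labels do not say whether the line is a single clone. All comparisons are therefore between genes within a library, and between the experiments, and none is between conditions.

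A double-strand break is repaired mainly along one of 2 routes. In homologous recombination the ends are resected to single strands, and these are paired with a homologous template that is copied. In end joining the ends are held by the Ku proteins and ligated, with little or no resection. Signalling kinases and ubiquitin ligases act before both, marking the chromatin around the break and recruiting the repair proteins. The 4C signal measures where the DNA of these genes lies, and says nothing of the amount or place of their proteins.

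Signal is given as RPM, the reads of a window for every 1000000 reads sequenced. The libraries of replicates 1 and 2 comprised 944456 and 454091 reads, so that 1 read is 1.06 RPM in replicate 1 and 2.20 RPM in replicate 2. Reads fell on 8.06% and 8.63% of all windows, and 35.7% and 27.7% of those windows had 1 read. At a window listed at 0 the expected count may, by counting error, be as high as 3 reads. That is 3.18 RPM in replicate 1 and 6.61 RPM in replicate 2. PCR copies are not independent molecules, so this limit and the intervals below cover counting error only. The strongest 500 kb window of the genome lay on chromosome 12, from 13500001 to 14000000 (hg18), and most signal fell on chromosomes 6, 12 and 17, which held 78.8% and 79.2% of it in replicates 1 and 2. The 6 repair genes on those chromosomes are RNF8, RAD52, RAD51C, RECQL5, BRCA1 and LIG3, and they are described apart.

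Of the 37 repair genes 23 (62.2%) had no reads in either experiment, where 76.8% of all gene names had none, and RAD52 was the sole member with reads at the same window in both experiments. In replicate 1 reads were found at 12 of the 37 genes (32.4%), where 14.4% of all 18644 gene names had reads. In replicate 2 they were found at 7 (18.9%), against 14.7% of all gene names. Both replicates had reads at 5 genes, RBBP8, BLM, RAD51L1, RAD52 and PRKDC (13.5%, against 5.92%). At 4 of these 5 the reads of the 2 experiments lay in different windows of the gene. Reads at the same window in both experiments were thus found at 1 gene (2.70%, against 4.39%). Of the 1103 gene names with reads in both replicates, 818 had them at the same window. A further 7 genes had reads in replicate 1 alone, as had 8.47% of all gene names, and 2 had reads in replicate 2 alone, as had 8.82%.

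**Figure D1:**
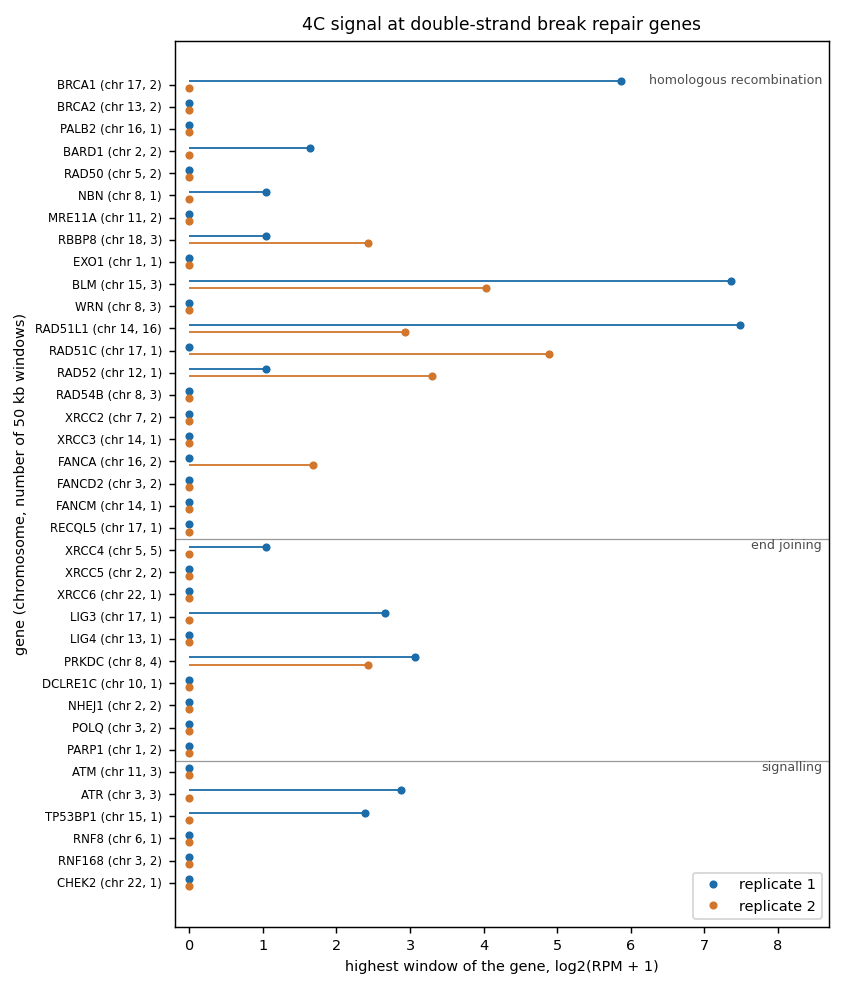
Signal at the highest window of each repair gene, as log2(RPM + 1) on the x axis, for replicate 1 (blue) and replicate 2 (orange); each row is a gene with its chromosome and number of 50 kb windows, in the order homologous recombination, end joining and signalling. Of the 37 genes 23 sit at 0 in both replicates, and the highest, RAD51L1, BLM and BRCA1, stand out in replicate 1.

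Counted over windows, the share with reads was higher at the members than over all named windows in replicate 1 and lower in replicate 2. Reads fell on 13 of the 84 windows in replicate 1, or 15.5% (95% Clopper-Pearson interval 8.51% to 25.0%), and 8.88% of all 36352 windows with a gene name had reads. In replicate 2 they fell on 7 windows, or 8.33% (3.42% to 16.4%), against 9.42%. Both intervals contain the share of all named windows. The mean share was 11.9% ± 5.05 (SD, n = 2). Off chromosomes 6, 12 and 17 the members had reads at 10 and 5 of 77 windows (13.0% and 6.49%), where 6.87% and 7.1% of named windows had them. The intervals there, 6.41% to 22.6% and 2.14% to 14.5%, contain the shares of named windows. Of the 31 genes there, 9 were detected in replicate 1, 5 in replicate 2 and 4 in both, where 12.1%, 12.1% and 3.81% of all gene names were. None of these 31 genes had reads at the same window in both, against 2.45%. The higher share in replicate 1 was thus not beyond counting error and was not found again in replicate 2. Windows of a gene share a position, and the list was not tested against other genes.

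The reads at the members were few. All 84 windows together held 406 reads in replicate 1 and 32 in replicate 2, which is 0.0429% and 0.00704% of the signal for 0.136% of all windows. Off chromosomes 6, 12 and 17, which hold most signal, the mean was 4.76 and 0.429 RPM per member window in replicates 1 and 2, against 3.93 and 3.86 over all windows there. The members were thus above that mean in replicate 1, through BLM and RAD51L1, and below it in replicate 2. Of the 13 windows with reads in replicate 1, 5 had 1 read (38.5%) and 3 had 10 or more (23.1%). Over all windows with reads in replicate 1 these shares were 35.7% and 41.5%. Of the 7 in replicate 2, 1 had 1 read and 1 had 10 or more (14.3% each), against 27.7% and 39.1% over all. The median at the members was 4 reads in replicate 1, as over all windows with reads, and 3 in replicate 2, where it was 5 over all. By genes, 3 members in replicate 1 and 1 in replicate 2 had a window with 10 or more reads, as had 6.32% and 6.23% of all gene names. Only 2 windows of the members, in BLM and RAD51L1, reached 100 reads, both in replicate 1 (15.4% of those with reads). Of all windows with reads 18.0% reached 100 in replicate 1 and 10.3% in replicate 2.

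**Figure D2:**
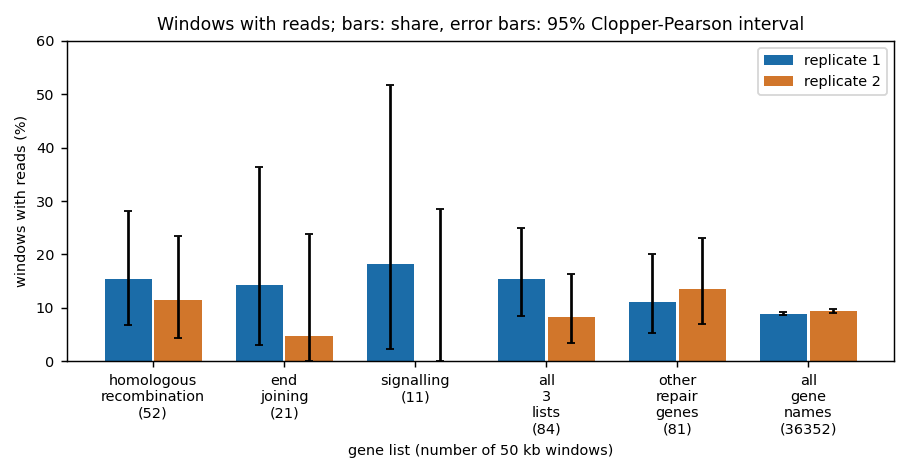
Share of 50 kb windows with reads (y axis, percent) in replicate 1 (blue) and replicate 2 (orange) for the 3 lists of repair genes, all 3 together, a second list of other repair genes and all named windows, with the number of windows below each name. Error bars are 95% Clopper-Pearson intervals; those of the 3 lists overlap each other and the shares of all named windows, which are 8.88% and 9.42%.

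Among all genes those with more windows had reads more often, and among the members those with 3 or more windows did. Of the 15 members with 1 window, 4 had reads in replicate 1 and 2 in replicate 2, where 8.33% and 8.63% of all gene names with 1 window had them. These 15 include RNF8, RAD52, RAD51C, RECQL5 and LIG3, on chromosomes 6, 12 and 17. Of all gene names on those chromosomes, 27.3% and 29.8% had reads in replicates 1 and 2. RAD52 and LIG3 were among the 4 in replicate 1, and RAD51C and RAD52 were the 2 in replicate 2. Of the 13 with 2 windows, 2 and 1 had reads, against 16.7% and 16.4% of such names. Of the 6 with 3 windows, 3 and 2 had reads, against 22.8% and 25.7%. The 3 members with 4 or more windows, RAD51L1, XRCC4 and PRKDC, all had reads in replicate 1 and 2 of them in replicate 2, against 41.9% and 42.02%. The mean number of windows was 2.27 per member and 1.95 per gene name, so counts over genes and counts over windows need not match.

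**Figure D3:**
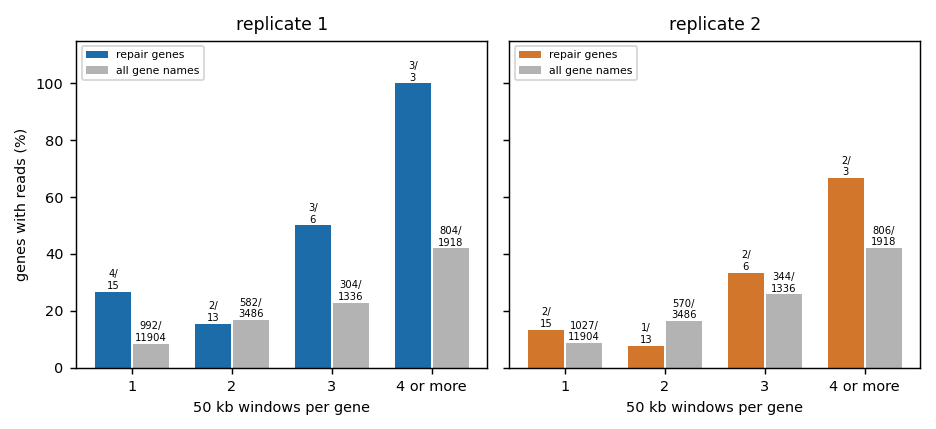
Share of genes with reads (y axis, percent) by the number of 50 kb windows that carry the gene's name (x axis), for repair genes (coloured) and all gene names (grey), in replicate 1 (left) and replicate 2 (right); the figures over the bars are genes with reads over genes in the class. The share climbs with gene length among all names from 8.33% to 41.9% in replicate 1, and the classes of repair genes hold between 3 and 15 genes.

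Of the genes that begin homologous recombination, NBN and RBBP8 had reads in replicate 1 and RBBP8 in replicate 2. Of all gene names 14.4% and 14.7% had reads in those replicates, and these genes are too few to set against that. MRE11A (now MRE11), RAD50 and NBN encode the complex that senses and trims the ends. NBN (chromosome 8, 91050001 to 91100000) had 1 read in replicate 1 and 0 in replicate 2, while MRE11A and RAD50 had 0 in both at their 2 windows each. RBBP8, which encodes CtIP, a partner of that complex in resection, had 2 reads in replicate 2 (4.40 RPM) in its first window and 1 read in replicate 1 (1.06 RPM) in its second. EXO1, an exonuclease gene of long resection, had none. None of these genes had more than 2 reads in any window, below the limit of 3 reads that a count of 0 allows.

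The BRCA genes and their partners act at several steps of recombination, from resection to the pairing of strands. BRCA1 had 54 reads in replicate 1 (57.2 RPM) and 0 in replicate 2, all in the second of its windows (chromosome 17, 38500001 to 38550000). BARD1, which encodes the partner of BRCA1 in a ubiquitin ligase, had 2 reads in replicate 1 and 0 in replicate 2 (chromosome 2, 215350001 to 215400000). BRCA2, whose product acts on the resected strand, and PALB2, which joins BRCA1 to BRCA2, had 0 in both replicates. BRCA1 was thus the one gene of this group above a few reads, in 1 experiment of 2.

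RAD51L1 (now RAD51B), RAD51C, XRCC2 and XRCC3 encode proteins that assist strand pairing. RAD51L1 is by far the longest member, with 16 windows on chromosome 14 from 67400001 to 68200000. In replicate 1 it had 168 reads (178 RPM) in the window from 67650001 to 67700000, the highest value of any member, and 1 read in another. In replicate 2 it had 3 reads (6.61 RPM) in the window that follows and 0 in those of replicate 1. RAD51C had 0 reads in replicate 1 and 13 in replicate 2 (28.6 RPM) at its 1 window. XRCC2 and XRCC3 had none in either, nor did RAD54B, a gene of a DNA translocase of recombination. RAD52, which encodes a protein that anneals single strands, had 1 and 4 reads.

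Of the helicase and Fanconi anaemia genes, BLM had the most signal. BLM, the helicase gene of Bloom syndrome, had 155 reads in replicate 1 (164 RPM) in its last window (chromosome 15, 89150001 to 89200000), and 0 in replicate 2. In its first window (89050001 to 89100000) it had 0 in replicate 1 and 7 in replicate 2 (15.4 RPM). The highest windows of BLM thus differed in place, and their mean of 89.8 RPM had an SD of 105 (n = 2). WRN and RECQL5, which encode helicases of the same RecQ family, had 0 in both replicates. FANCA, a gene of the Fanconi core complex, had 1 read in replicate 2 alone, and FANCD2 and FANCM, a substrate and a DNA translocase of that pathway, had none.

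End joining genes had reads at 3 of 10 members in replicate 1 and at 1 in replicate 2, where 14.4% and 14.7% of all gene names had them. PRKDC, which encodes the catalytic subunit of the kinase DNA-PK, had 7 reads in replicate 1 (7.41 RPM; chromosome 8, 48850001 to 48900000) and 2 in replicate 2 (4.40 RPM; 49000001 to 49050000), in the first and last of its 4 windows. LIG3, a DNA ligase gene of alternative end joining, had 5 reads in replicate 1 and 0 in replicate 2. XRCC4, whose product holds DNA ligase IV, had 1 read in replicate 1 over its 5 windows and 0 in replicate 2. No reads were found at XRCC5 and XRCC6, which encode the Ku heterodimer, or at LIG4, NHEJ1 and DCLRE1C, genes of the classical route. POLQ and PARP1, genes of alternative end joining, had none either. Over windows the shares were 14.3% and 4.76% of 21 for end joining, and 15.4% and 11.5% of 52 for homologous recombination, with intervals that overlap widely.

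Of the 6 signalling genes 2 had reads in replicate 1 and 0 in replicate 2, numbers too small to set against the 14.4% and 14.7% of all gene names. ATR, the kinase gene of the response to single-stranded DNA, had 6 reads in replicate 1 (6.35 RPM; chromosome 3, 143700001 to 143750000) and 0 in replicate 2. TP53BP1, which encodes 53BP1, a chromatin-bound factor that limits resection, had 4 and 0 (chromosome 15, 41550001 to 41600000). ATM, the main kinase gene of the break response, CHEK2, a kinase gene downstream of it, and the ubiquitin ligase genes RNF8 and RNF168 had 0 in both. In replicate 2 reads lay on 0 of the 11 signalling windows, for which the upper Clopper-Pearson bound is 28.5%. The 9.42% of all named windows lies within that interval, so 0 of 11 cannot be told from such a share.

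The experiments differed at the members with reads, most of which held few reads. Of the 14 genes with reads in either replicate, 13 differed by more than 1 in log2(RPM + 1) at their highest windows. Of these, 9 were higher in replicate 1 and 4 in replicate 2. Among all 4326 gene names with reads, 4042 (93.4%) differed so, 1929 towards replicate 1 and 2113 towards replicate 2. A gene with reads in 1 replicate alone always passes this limit: NBN, with 1 and 0 reads, differed by 1.04. The 7 members with reads in replicate 1 alone and the 2 in replicate 2 alone thus passed whatever their level. The 93.4% counts such genes too. PRKDC was the exception among the 14, with a difference of 0.64, though its reads lay in different windows in the 2 replicates. An exact binomial test of the recovered reads, two-sided and adjusted over the 8750 windows with reads, called 5 of the 19 member windows tested, and 49.2% of those 8750. No member window with fewer than 7 reads was called. The called windows belong to BRCA1 (adjusted p = 4.24e-09 by this exact test), RAD51L1, RAD51C and BLM, the last with both windows at which it had reads. RAD52 was not called (adjusted p = 0.0777 by the same exact test). Each library is 1 sample, so the test compares these libraries and not conditions, and with PCR copies in the counts its p-values are too small.

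The 6 members on chromosomes 6, 12 and 17 lie in surroundings that range from the richest to the emptiest of the list. RNF8, the ubiquitin ligase gene that starts the chain of ubiquitin marks at a break, lies on the short arm of chromosome 6 (37450001 to 37500000). Its own window had 0 reads in both replicates. Of the 20 windows within 500 kb, 15 had reads in replicate 1 and 17 in replicate 2. The window before it, named for TBC1D22B, had 249 and 109 reads, and the window after it, named for KIAA0082, had 27 and 184. Within 1 Mb on either side 30 of 40 windows had reads in both replicates, and 3 had none in either. RNF8 thus had the most detected surroundings of all members, 80.0% ± 7.07 (SD, n = 2), and no read of its own. The number of HindIII fragments in its window, which sets what 4C can recover there, was not tested.

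RAD52 is the one member on chromosome 12 (900001 to 950000), 12.8 Mb from the centre of the strongest window, towards the chromosome start. It had 1 read in replicate 1 (1.06 RPM) and 4 in replicate 2 (8.81 RPM), 4.93 ± 5.48 RPM (SD, n = 2). Between 10240 kb and 20480 kb from that centre on the same side lie 70 windows, and reads reached 58.6% of them in replicate 1, 48.6% in replicate 2 and 35.7% in both. In that set 33 windows had more reads than RAD52 in replicate 1 and 23 in replicate 2. Its detection is therefore common for its distance, and its level is not among the highest. Within 500 kb, 65.0% and 55.0% of windows had reads.

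**Figure D4:**
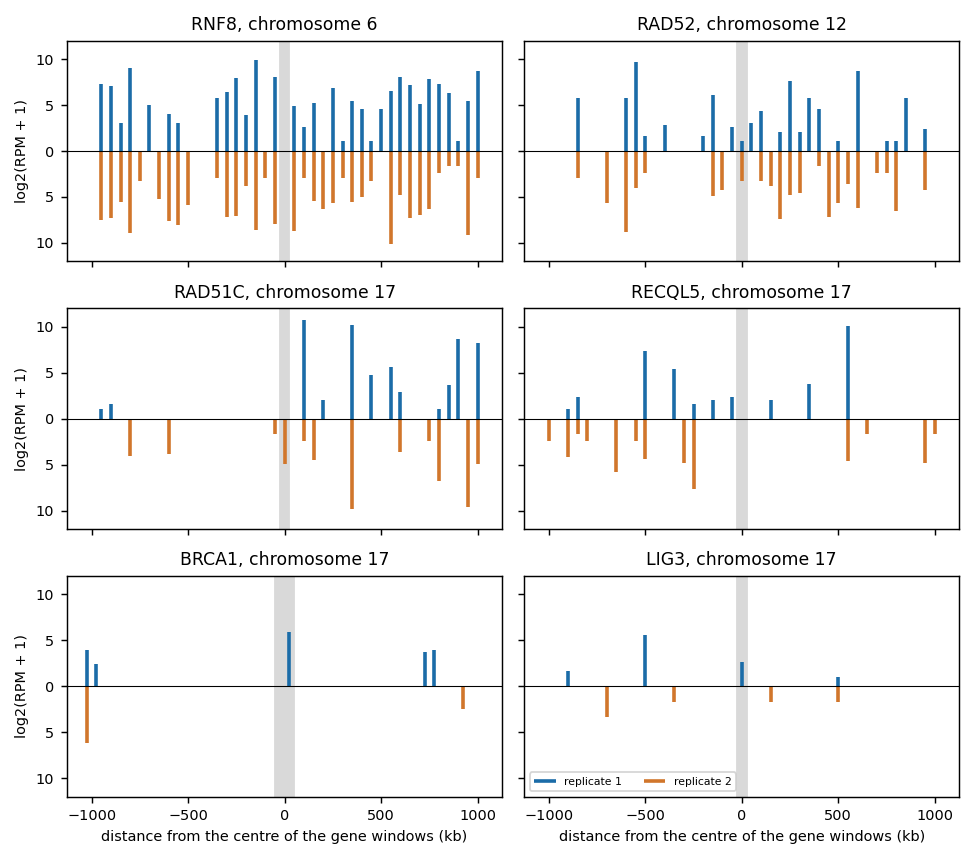
Signal in 50 kb windows within about 1 Mb of the 6 members on chromosomes 6, 12 and 17, as log2(RPM + 1), upward for replicate 1 (blue) and downward for replicate 2 (orange), against distance in kb from the centre of the gene's windows, which are shaded. RNF8 shows an empty shaded window among 32 and 35 of 40 windows with reads, and RAD51C has reads mostly on the side towards the chromosome end. Few windows around BRCA1 and LIG3 have reads: 4 and 2 of 40 around BRCA1, and 3 and 4 of 40 around LIG3, in replicates 1 and 2.

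The 4 members on chromosome 17 differed in the same respect. RAD51C (54150001 to 54200000) lay at a change in detection along the chromosome. Of the 20 windows towards the chromosome start, 2 and 3 had reads in replicates 1 and 2, with at most 2 and 7 reads. Of the 20 towards the end, 10 and 8 had reads, with up to 1558 and 411. These were different windows: one named for PPM1E (54250001 to 54300000) had 1558 and 2 reads in replicates 1 and 2, and one named for TRIM37 (54500001 to 54550000) had 1074 and 411. RECQL5 (71150001 to 71200000), with 0 reads, had them in 7 and 3 of the 20 windows within 500 kb.

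BRCA1 and LIG3 lie before that stretch of chromosome 17, where few windows had reads. BRCA1 had 54 reads in replicate 1, yet none of the 20 windows within 500 kb had a read in either replicate. The nearest window with reads in both experiments was 1000 kb from it. LIG3 (30350001 to 30400000) had reads in 2 and 3 of 20 windows around it. The level at BRCA1 thus stood alone within its surroundings and in 1 library.

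Off chromosomes 6, 12 and 17, few windows around the members had reads. The share of windows with reads within 500 kb, averaged over the replicates, had a median of 7.5% over the 31 members and ran from 0% to 17.5%, and over 15874 gene names its median was 5.0% and it ran up to 32.5%. The 17.5% was reached by RAD51L1 and PARP1. Over all chromosomes 6 members had no read within 500 kb in either replicate: BRCA1, PALB2, WRN, FANCA, ATR and TP53BP1. The same held for 10.0% of all gene names. Of these, BRCA1, ATR and TP53BP1 had reads of their own in replicate 1 and FANCA in replicate 2. The nearest window with reads in both experiments lay a median of 1150 kb from the 31 members and 1500 kb from all gene names there, and was farthest from PALB2, at 15750 kb.

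**Figure D5:**
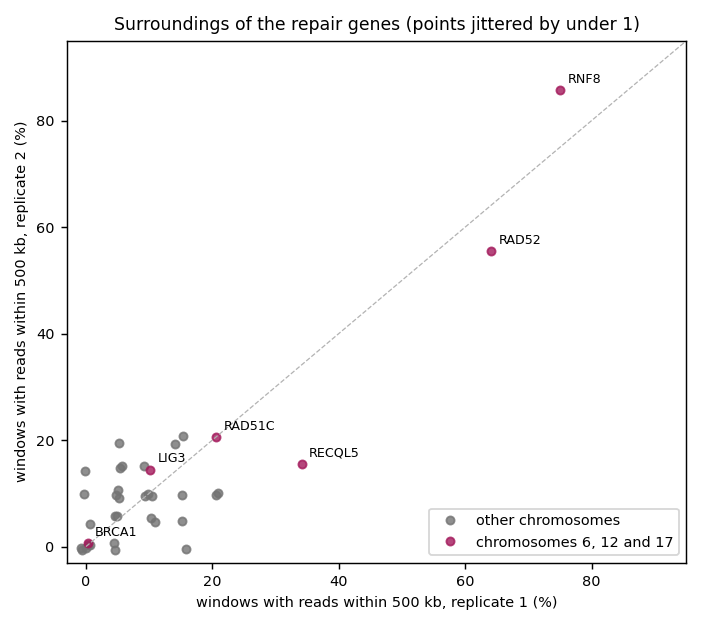
Share of windows with reads within 500 kb of each repair gene, leaving out its own windows, in replicate 1 (x axis, percent) and replicate 2 (y axis, percent); points are genes, jittered by under 1 point of percent, and the dashed line marks equal shares. RNF8, at 75.0% and 85.0%, and RAD52, at 65.0% and 55.0%, lie far from the other members, none of which is above 35.0% in either replicate.

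The names RAD54L and MDC1 were not found in the table, which gives 1 name per window. In RefSeq's gene order RAD54L, a gene of a translocase of recombination, lies between LURAP1 (C1orf190 in the table) and UQCRH, whose windows on chromosome 1, 46500001 to 46550000 and 46550001 to 46600000, had 0 reads in both replicates. MDC1, which encodes the scaffold that binds the marked histone next to a break, lies between PPP1R18 (KIAA1949) and TUBB on chromosome 6. Their windows, 30750001 to 30800000 and 30800001 to 30850000, also had 0 in both. These neighbouring windows touch each other in both cases, so the genes may lie in them under another name.

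A further 68 names of genes with roles in break repair and its signalling were looked up, of which 42 occur in the table. Reads were found at 7 of these in each replicate (16.7%, where 14.4% and 14.7% of all gene names had them) and at 5 in both (11.9%, against 5.92%). BRIP1, which encodes a helicase that binds BRCA1, had 772 and 118 reads in replicates 1 and 2 in the window from 57200001 to 57250000 of chromosome 17, above any of the members in both experiments, and 1 and 112 in the next. PPM1D, a phosphatase gene that ends the break response, had 4 and 6 reads (56000001 to 56050000) and 0 and 22 in the next window. Both lie beyond RAD51C towards the end of chromosome 17, past the 1 Mb described around it. BRE, a gene of a BRCA1-containing complex, had 16 and 10 reads at 1 of its windows (chromosome 2, 28300001 to 28350000). At 3 other BRE windows reads were found in 1 experiment alone, with 271 and 0, 0 and 35, and 0 and 12 in replicates 1 and 2. RAD18, a ubiquitin ligase gene, had 178 reads in replicate 1 and 2 in replicate 2 in different windows, and SMARCAL1, which encodes an annealing helicase, 8 and 31, again in different windows.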

How the data were processed

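Per the file headers, the table holds the signal of both libraries in 50 kb windows, each with at most 1 gene name. The signal values the authors deposited are reads per 1000000 reads: 100% of them were whole multiples of 1 read within a tolerance of 0.1 read, and reads were recovered by this step. Coordinates are those of hg18 (per the submitters' processing notes). Of the aligner, read filters, counting tool and annotation, the sources used here say nothing. The final 2 rows (a total and a mean) and the mitochondrial window were left out; 47 windows with a spreadsheet date as name count among all windows but not among named ones.

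The members and lists were chosen with earlier results of these data known. All members are named, and other repair genes with reads in both replicates. All 37 members matched RefSeq (GRCh38.p14, names and gene order alone), 35 by current symbol and 2 by synonym, each on the same chromosome. A member has reads where any window with its name is above 0; its level is the highest window. Surroundings are the 10 windows on either side. With 1 group no test between groups exists; the exact binomial test (scipy 1.17.1, Benjamini-Hochberg adjustment, threshold 0.05) compared the libraries and was tested on simulated data. Distance bins on chromosome 12 widen by a factor of 2 from 10 kb. Alternatives covered read minimum, windows counted, chromosomes, pseudocount and each replicate. HindIII fragments per window were not counted.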

Additional observations from a re-analysis of the deposited data

How the results depend on the processing

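The counts of members with reads rest on windows with few reads. With at least 10 reads at a window, 3 members had reads in replicate 1, 1 in replicate 2 and 0 in both (6.32%, 6.23% and 1.92% of all gene names), and the mean share of member windows with reads was 2.38%. With at least 2 reads, 3 members had reads in both (3.73% of all gene names). With the same RPM minimum in both libraries, that of 1 read of replicate 2 (an alternative chosen after seeing the data), 7 members had reads in replicate 1, 7 in replicate 2 and 3 in both (8.53%, 14.7% and 4.03% of all gene names). With 1 more window on either side, the numbers of members were 17 in replicate 1 and 13 in replicate 2 (26.3% and 26.8% of all gene names). With 5 as pseudocount, 7 members differed between libraries by more than 1 on the log2 scale, and 4 did by the exact binomial test. The share of all gene names was not computed for either count, so neither can be set against one. By windows that test called 5 of 19 at the members and 49.2% of all 8750 with reads. Leaving out each replicate, the share of member windows with reads ran from 8.33% to 15.5%. It was 9.74% without chromosomes 6, 12 and 17 and 12.5% without RAD51L1, and the median share around members ran from 7.5% to 10.0% with 250 kb or 1 Mb. No other symbol of a member occurred in the table. No paired analysis was possible because both libraries belong to 1 group. At this depth a window listed at 0 cannot be told from one where up to 3 reads are expected.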

Other observations

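Among the 42 other repair genes in the table, 4 had reads in 1 experiment alone. Of all gene names 8.47% had reads in replicate 1 alone and 8.82% in replicate 2 alone. MDM2, the ubiquitin ligase gene that restrains p53, had 0 reads in replicate 1 and 72 in replicate 2 (chromosome 12, 67450001 to 67500000), 53.7 Mb from the centre of the strongest window. In that distance bin, from 40960 kb to 81920 kb towards the chromosome end, 7.69% of 819 windows had reads in replicate 2, and 6 of them had more than MDM2. TOPBP1, which encodes an activator of ATR, had 46 reads in replicate 1 and 0 in replicate 2 (chromosome 3, 134850001 to 134900000). CHEK1, the kinase gene downstream of ATR, had 13 and 0 (chromosome 11, 125000001 to 125050000), and NSMCE2, a gene of the SMC5/6 complex, had 0 and 9 (chromosome 8, 126250001 to 126300000).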
